A study of Mus musculus with 6 samples.

Results

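Prostaglandins, leukotrienes and the resolvins act on cells through G protein-coupled receptors. This report describes the RNA of 10 such receptor genes in isolated mouse mammary epithelial cells. They were picked by gene symbol and not by any measured value, though with earlier results of these data known. They comprise the prostaglandin E receptors *Ptger1*, *Ptger2*, *Ptger3* and *Ptger4*, the prostacyclin receptor *Ptgir*, the leukotriene receptors *Ltb4r1* and *Cysltr1*, and *Cmklr1*, *Fpr2* and *Gpr18*, which have resolvins among their reported ligands. All 10 were found among the 53912 loci of the table, a locus being the sum of the rows that share an identifier, and all 10 passed the filter on low counts that left 24061 loci for testing. Each receptor was the only row of its locus, except that the locus of *Fpr2* also held *Fpr3*, which had 0 counts in every sample.

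The cells came from the inguinal mammary glands of female FVB/NJ mice aged 6 to 8 weeks, during puberty. There were 3 pooled samples from *fat-1* transgenic mice and 3 from wildtype (WT) mice. Mammals lack the nematode (*C. elegans*) desaturase that *fat-1* codes for, and carriers of the transgene can convert *n*-6 fatty acids of the diet to the *n*-3 kind in their tissues. Both genotypes were kept lifelong on a modified AIN93G diet with safflower oil as the fat, at 10% of weight and 22% of energy. Each sample was a pool of cells from several mice released by enzyme digestion after the lymph nodes had been removed, with no sort described, and the oestrous stage was not determined, so that the p-values below measure the spread between pools.

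The ligands of these receptors are made on demand from fatty acids of the cell membrane. Cyclooxygenases turn the *n*-6 fatty acid arachidonic acid into prostaglandins, 5-lipoxygenase turns it into leukotrienes, and the *n*-3 fatty acids give rise to resolvins. In the mammary gland, prostaglandin E2 is known from cyclooxygenase-2 activity in epithelium and tumours, whereas leukotriene and resolvin receptors are best known from leukocytes.

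The total count of a sample was between 204539059 and 232148824, so that even *Cysltr1*, the receptor with the fewest reads, had 68 to 234 counts a sample. Levels are given in CPM, counts scaled to a fixed total of the normalized library. The isolates held RNA of more than epithelium. The summed level of the luminal markers ranged over 856–3599 CPM for *fat-1* and 904–2937 CPM for WT, and that of the basal markers over 140–535 and 135–417 CPM. B cell markers (4 of 5 summed, *Cd79a* sharing a locus) were at 265–728 and 292–787 CPM, T and NK cell markers at 75.9–150 and 64.8–143 CPM, and fibroblast markers at 1551–6065 and 3332–5617 CPM. Macrophage markers (5 of 6 summed, *Cd68* sharing a locus) were at 38.7–62.5 and 44.0–68.9 CPM, neutrophil markers at 18.1–44.5 and 20.2–31.1 CPM, mast cell markers at 9.85–27.2 and 22.7–39.5 CPM, and endothelial markers at 183–227 and 202–247 CPM. Of the adipocyte markers, *Fabp4* was at 83.2–106 CPM in *fat-1* and 112–126 CPM in WT, without overlap. The other 3, *Adipoq*, *Plin1* and *Lep*, were each at 0.500 CPM or less in every sample. *Fabp4* is therefore not taken as a measure of adipocytes. Dendritic cell markers were at 6.59–14.7 and 7.46–13.6 CPM, platelet markers at 9.75–12.9 and 9.91–11.7 CPM, and pericyte markers at 39.1–95.6 and 61.8–103 CPM. Only *Fabp4* among all these markers had an unadjusted p at or under 0.05 (log2 fold change −0.31, unadjusted p = 0.0370, quasi-likelihood test). The endothelial markers *Cdh5* and *Tek* did not overlap between genotypes either. *Cdh5* was at 72.8–79.5 CPM in *fat-1* and 79.9–101 CPM in WT, and *Tek* at 7.44–9.07 and 9.12–15.5 CPM. Of all 24061 loci tested, 4.15% did not overlap. No marker was at 0 in all samples. In such bulk samples, fewer cells of a type and less RNA per cell cannot be told apart.

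Promoter sequences show how unlike these genes are at their starts. Of the 10 receptors, 8 had an entry in the RefSeq promoter table (GRCm38.p6), and the 250 bases before the start are printed for the 3 receptors with the highest RNA level per length and for *Ptger3*, whose RNA followed that of *Ptgir* across the samples. Capitals mark GGGCGG or its reverse complement CCGCCC, the core of the GC box. They stand at chr14:121915889-121916138 (minus strand) for *Gpr18*, chr7:16906240-16906489 (plus strand) for *Ptgir*, chr15:5244188-5244437 (minus strand) for *Ptger4* and chr3:157566626-157566875 (plus strand) for *Ptger3*, each read 5′ to 3′ along the gene.
Gpr18: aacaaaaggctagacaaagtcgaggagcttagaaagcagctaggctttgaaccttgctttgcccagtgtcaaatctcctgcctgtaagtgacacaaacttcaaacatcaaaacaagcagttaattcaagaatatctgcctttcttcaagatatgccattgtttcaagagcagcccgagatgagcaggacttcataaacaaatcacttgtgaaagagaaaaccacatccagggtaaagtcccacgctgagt
Ptgir: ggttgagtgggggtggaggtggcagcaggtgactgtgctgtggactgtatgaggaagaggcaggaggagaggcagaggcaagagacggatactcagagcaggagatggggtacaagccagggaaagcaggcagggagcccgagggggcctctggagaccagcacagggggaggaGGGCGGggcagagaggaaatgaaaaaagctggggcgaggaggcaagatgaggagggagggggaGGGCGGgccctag
Ptger4: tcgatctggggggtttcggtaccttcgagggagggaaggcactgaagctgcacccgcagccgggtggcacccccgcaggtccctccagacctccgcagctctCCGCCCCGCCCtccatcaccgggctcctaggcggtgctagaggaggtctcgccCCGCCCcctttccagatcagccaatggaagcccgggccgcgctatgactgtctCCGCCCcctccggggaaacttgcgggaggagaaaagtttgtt
Ptger3: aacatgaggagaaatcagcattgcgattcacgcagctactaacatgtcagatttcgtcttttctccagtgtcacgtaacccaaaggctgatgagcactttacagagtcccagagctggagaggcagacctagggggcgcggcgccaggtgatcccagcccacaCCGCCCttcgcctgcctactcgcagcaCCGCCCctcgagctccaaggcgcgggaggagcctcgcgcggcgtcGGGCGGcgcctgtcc

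The *Gpr18* window had 42.4% G and C, 3 CpG dinucleotides and no GGGCGG on either strand. The *Ptger4* window had 66.8% G and C and 19 CpG, with 4 matches, of which the first pair overlap by their end bases. *Ptgir* had 63.6% G and C but 5 CpG, with 2 matches, and *Ptger3* had 62.0% and 21 CpG, with 3 matches. Over all 32851 promoters the medians were 52.4% G and C and 6 CpG. GGGCGG on either strand was in 4 of the 8 receptor windows (the fourth is *Ltb4r1*) and in 32.7% of all windows of this length. The letters TATAAA were in 1 of 8, *Fpr2*, against 12.4% of all, and the cyclic AMP response element TGACGTCA in 0 of 8, against 1.55% of all. *Ptgir* and *Ptger3*, with the most similar profiles of any pair of receptors (Pearson r = 0.97 of log2(CPM + 1) over 6 samples), thus had like shares of G and C but unlike numbers of CpG.

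Levels between genes were compared per kilobase of exon (GENCODE vM21, GRCm38), over all 6 samples. *Gpr18* was the highest at 13.0 ± 7.44 CPM per kb (SD, n = 6; range 5.81–23.0), *Ptgir* followed at 8.67 ± 2.82 (3.97–11.6) and *Ptger4* at 4.61 ± 0.367 (4.10–5.02). These 3 receptors led in all samples. *Ptger1* was at 0.995 ± 0.281 CPM per kb, *Ltb4r1* at 0.862 ± 0.254, *Cmklr1* at 0.810 ± 0.378, *Fpr2* at 0.695 ± 0.160, *Ptger3* at 0.611 ± 0.139 and *Ptger2* at 0.578 ± 0.0903. *Cysltr1* was the lowest at 0.123 ± 0.0664 CPM per kb, and the mean of *Gpr18* was 105 times that. The ranges of neighbours in this order overlapped in 7 of 9 pairs. They were separate only between *Ptger4* and *Ptger1* and between *Ptger2* and *Cysltr1*, so that the order falls into 3 high, 6 low and 1 very low receptor, with no separation between neighbours inside the first 2 tiers. *Gpr18* was above *Ptgir* in 4 of 6 samples and took 24.5% to 56.1% of the summed level of the 10 receptors, depending on the sample.

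**Figure D1:**
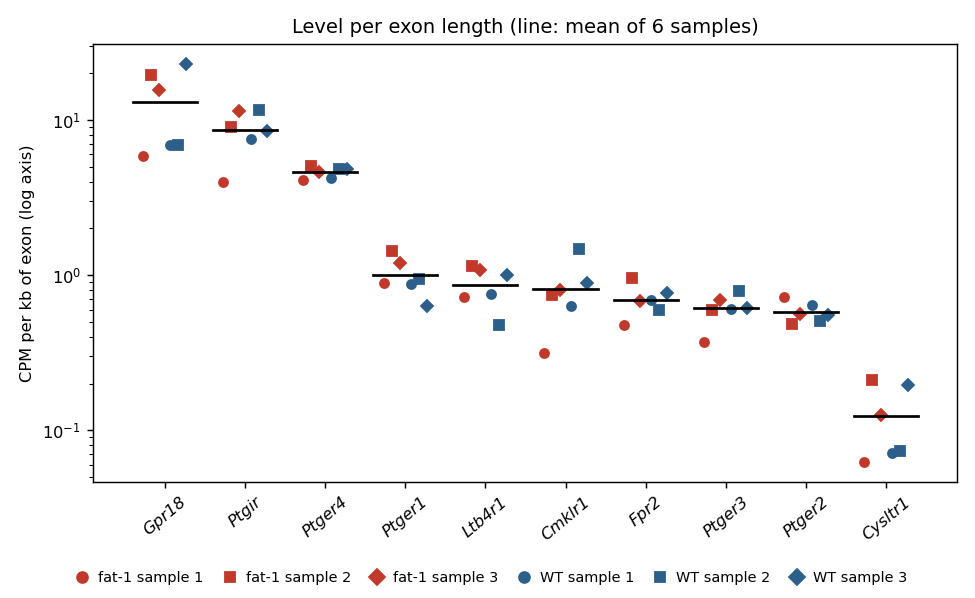
RNA level of each receptor in CPM per kb of exon, on a log axis, with 1 point per pooled sample and a line at the mean of 6 samples. *Gpr18*, *Ptgir* and *Ptger4* stand above the other receptors in every sample, and *Cysltr1* stands below them.

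Of the receptors for prostaglandin E2, *Ptger4* (EP4, which raises cyclic AMP) was by far the most abundant and the steadiest. Its level was 27.3, 33.4 and 30.7 CPM in the *fat-1* pools (samples 1, 2 and 3, the order used throughout) and 28.2, 32.1 and 32.3 CPM in the WT pools. The groups overlapped, and the highest sample was 1.22 times the lowest, the narrowest spread of the 10. The log2 fold change, *fat-1* relative to WT, was −0.02 (SE 0.12, unadjusted p = 0.874, edgeR quasi-likelihood), with a 95% confidence interval of 0.810- to 1.20-fold. Of its 6648 exonic bases (chr15:5206661-5244187), 15.3% also belong to the pseudogene *Gm15937* on the other strand, which was at 0.0608–0.106 CPM.

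*Ptger2* (EP2), which also raises cyclic AMP, was a minor receptor beside it. *Ptger4* was 5.64 to 10.3 times as high per length in each of the 6 samples, with a median of 8.52. *Ptger2* was at 3.78, 2.53 and 2.90 CPM in *fat-1* and 3.31, 2.61 and 2.87 CPM in WT (chr14:44988195-45003820). Sample 1 was the highest of each genotype, and the WT values lay within the *fat-1* range. Relative to WT, the log2 fold change of *fat-1* was 0.07 (SE 0.20, unadjusted p = 0.748), with an interval of 0.748- to 1.47-fold.

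*Ptger3* (EP3), which lowers cyclic AMP, was at 2.11, 3.39 and 3.90 CPM in *fat-1* and 3.43, 4.52 and 3.50 CPM in WT (chr3:157566892-157645888). *fat-1* sample 1 stood low, and the other *fat-1* samples lay among the WT samples or just below them. Its log2 fold change was −0.28 (SE 0.26, unadjusted p = 0.317), with an interval of 0.532- to 1.27-fold.

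*Ptger1* (EP1), which signals through calcium, came nearest to a difference between genotypes. It was at 4.83, 7.82 and 6.54 CPM in *fat-1* and 4.81, 5.14 and 3.43 CPM in WT. *fat-1* samples 2 and 3 were above all WT samples, while *fat-1* sample 1 lay within the WT range. The log2 fold change was 0.52 (SE 0.24, unadjusted p = 0.0711, adjusted p = 1.00), which is 1.43-fold with an interval of 0.959 to 2.14. Without *fat-1* sample 1 the log2 fold change was 0.70 (unadjusted p = 0.0192), while without *fat-1* sample 2 it was 0.35 (unadjusted p = 0.217) and without WT sample 3 it was 0.38 (unadjusted p = 0.178). The reads of *Ptger1* (chr8:83666678-83672753) are uncertain, since its exonic bases are not all its own and use of strand in the counting is not stated.

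*Ptgir*, the prostacyclin receptor, which raises cyclic AMP, was the second highest receptor per length. It was at 13.2, 29.9 and 38.0 CPM in *fat-1* and 25.3, 38.8 and 28.1 CPM in WT (chr7:16906490-16910905). *fat-1* sample 1 had the lowest value of the 6, and the other *fat-1* samples were inside the WT range. For this receptor the log2 fold change was −0.18 (SE 0.39, unadjusted p = 0.649), with an interval of 0.462- to 1.68-fold. Per length, *Ptgir* exceeded *Ptger4* in 5 of 6 samples, by 1.73- to 2.47-fold, and was 0.968 times *Ptger4* in *fat-1* sample 1.

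**Figure D2:**
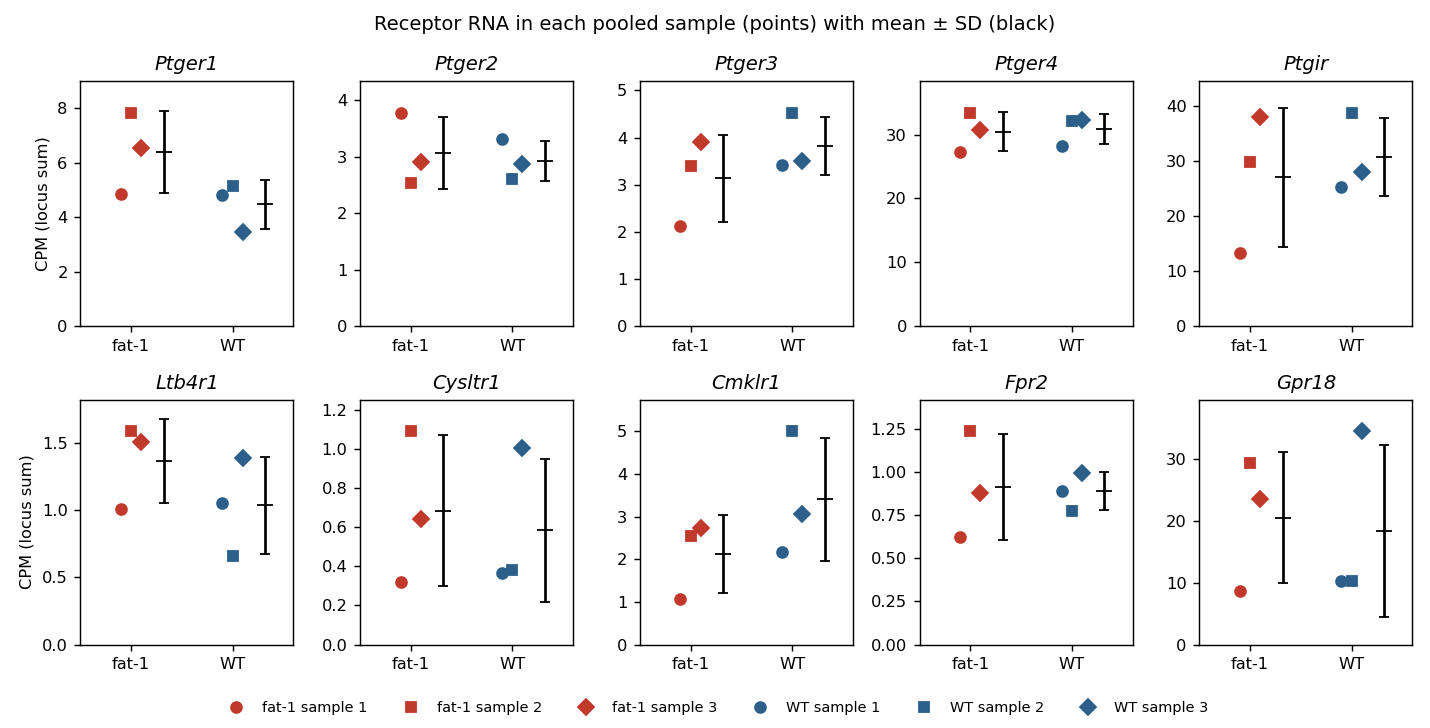
CPM of each receptor (locus sum, linear axis from 0) in the 3 *fat-1* and 3 WT pooled samples, with 1 point per sample and the mean ± SD of each genotype in black. The genotypes overlap for all 10 receptors, and *fat-1* sample 1 is the lowest sample for *Ptger3*, *Ptger4*, *Ptgir*, *Cysltr1*, *Cmklr1*, *Fpr2* and *Gpr18*.

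The leukotriene receptors were low. *Ltb4r1* encodes the high-affinity leukotriene B4 receptor of leukocytes, which is also reported to bind resolvin E1. It was at 1.01, 1.58 and 1.51 CPM in *fat-1* and 1.06, 0.662 and 1.39 CPM in WT (chr14:55765962-55768494). WT sample 2 was the lowest and *fat-1* samples 2 and 3 the highest, with sample 1 of each genotype close to the other. Its log2 fold change was 0.41 (SE 0.32, unadjusted p = 0.254), with an interval of 0.771- to 2.28-fold. *Ltb4r1* was 4.01 to 12.1 times as high per length as *Ltb4r2*, the low-affinity receptor.

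*Cysltr1*, a receptor for the cysteinyl leukotrienes, was at 0.322, 1.09 and 0.644 CPM in *fat-1* and 0.365, 0.380 and 1.01 CPM in WT (chrX:106574346-106603679). *fat-1* sample 2 and WT sample 3 were the high samples. Between genotypes the log2 fold change was 0.24 (SE 0.57, unadjusted p = 0.690), and its interval, 0.451- to 3.09-fold, was wide. The other cysteinyl leukotriene receptor, *Cysltr2*, was 2.49 to 3.75 times as high per length in each sample.

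*Cmklr1* encodes the chemerin receptor, which is also reported to bind resolvin E1. It was at 1.08, 2.55 and 2.74 CPM in *fat-1* and 2.17, 4.99 and 3.05 CPM in WT (chr5:113612354-113650426), the widest spread of the 10, with the highest sample 4.64 times the lowest. The lowest sample was a *fat-1* sample and the 2 highest were WT, but WT sample 1 was below *fat-1* samples 2 and 3. On the log2 scale the fold change was −0.68 (SE 0.44, unadjusted p = 0.171), which is 0.623-fold with an interval of 0.296 to 1.31. Adding the replicate number as a block gave −0.70 with an unadjusted p of 0.0324 for the locus and 0.0511 for the deposited row, so that the row did not pass.

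*Fpr2* encodes a formyl peptide receptor for which annexin A1, lipoxin A4 and resolvin D1 are reported ligands. It was at 0.621, 1.24 and 0.880 CPM in *fat-1* and 0.893, 0.777 and 0.997 CPM in WT (chr17:17887824-17893952). The *fat-1* samples held both the lowest and the highest value, with WT between them. Its log2 fold change was 0.04 (SE 0.29, unadjusted p = 0.897), with an interval of 0.636- to 1.66-fold.

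*Gpr18*, which is best known from lymphocytes and is a reported receptor for resolvin D2, was the highest per length. It was at 8.71, 29.4 and 23.5 CPM in *fat-1* and 10.3, 10.3 and 34.4 CPM in WT (chr14:121911253-121915781). The values formed 2 sets: *fat-1* sample 1 with WT samples 1 and 2 were low, and *fat-1* samples 2 and 3 with WT sample 3 were high. For *Gpr18* the log2 fold change was 0.16 (SE 0.63, unadjusted p = 0.806), and the interval, 0.391- to 3.19-fold, was the widest of the 10. Per length, *Gpr18* was 10.0 to 29.9 times as high as *Fpr2*. The gene lies within *Ubac2* on the opposite strand but shares no exonic base with it.

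Across the 10 receptors, 0 had an adjusted p at or under 0.05 (Benjamini–Hochberg over all loci), and the adjusted p was 1.00 for each. Among all 24061 loci, 0 passed that threshold by the quasi-likelihood test, 6 by edgeR's exact test and 8 by DESeq2. At an unadjusted p at or under 0.05, 0 of 10 receptors passed, where 1.14% of all loci did. The CPM of the genotypes did not overlap for 0 of 10 receptors and for 4.15% of all loci. The fold changes had a median of 0.05 on the log2 scale, beside 0.00 over all loci, with 6 receptors above 0 and 4 below. Their median size without sign was 0.21, beside 0.11 over all loci. On the deposited rows the counts were the same, 0 of 10 receptors at the unadjusted threshold where 2.21% of 30683 rows passed, and 0 of 10 without overlap between genotypes, where 5.26% of rows were. Exact two-sided permutation tests of log2(CPM + 1), 3 against 3, gave p from 0.2 to 1.0, where the smallest possible is 0.1.

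The confidence intervals set what these samples could show. For *Ptger4* and *Ptger2* they left out changes beyond 1.20-fold and 1.47-fold upwards and 0.810-fold and 0.748-fold downwards. For *Gpr18* and *Cysltr1* the intervals reached 3.19-fold and 3.09-fold.

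**Figure D3:**
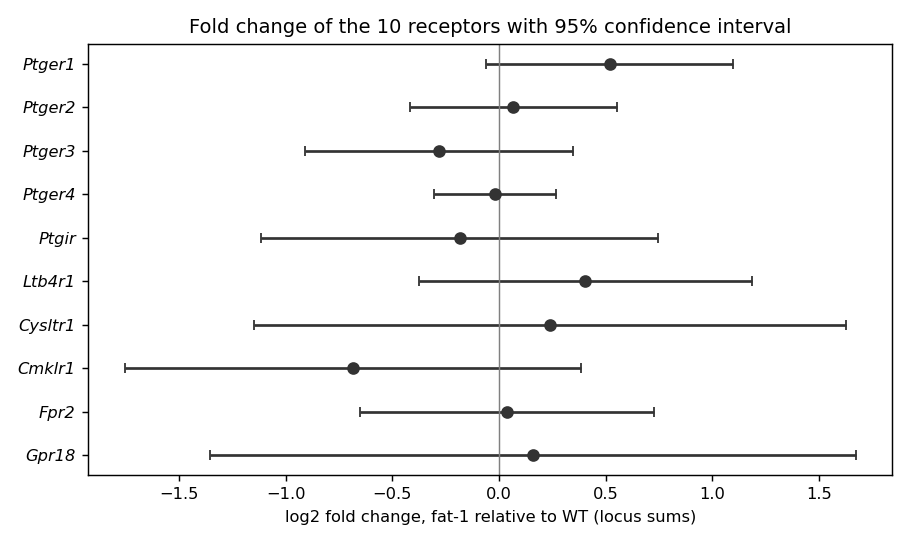
Log2 fold change of each receptor, *fat-1* relative to WT, from the quasi-likelihood fit on locus sums (n = 3 per genotype), with bars for the 95% confidence interval. Every interval contains 0, from the narrow one of *Ptger4* (−0.30 to 0.27) to the wide one of *Gpr18* (−1.35 to 1.67).

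The next comparison asked which receptors followed the cell makeup of the isolates. Each receptor was set against the mean log2(CPM + 1) of 16 epithelial, 25 immune and 11 stromal (fibroblast and endothelial) markers over the 6 samples, which share library and scaling with the receptor. Of the 30 relations, 7 had a Benjamini–Hochberg adjusted p at or under 0.05 for Pearson's r (exact permutation over 6 samples), 2 of them for *Gpr18*. By Spearman's rho 0 of 30 passed, with a smallest adjusted p of 0.0714, and with CPM in place of its logarithm 0 of 30 passed for r, with a smallest adjusted p of 0.0625.

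*Ptgir*, *Ptger3* and *Cmklr1* followed the stromal markers. For *Ptgir* r was 0.979 (exact permutation p = 0.00417, adjusted p = 0.0208) and rho 0.943 (p = 0.0167, adjusted p = 0.0714). For *Ptger3* r was 0.966 (exact permutation p = 0.00278, adjusted p = 0.0208) and rho 0.943. For *Cmklr1* r was 0.921 (exact permutation p = 0.00417, adjusted p = 0.0208) and rho 0.943. Without *fat-1* sample 1 and WT sample 2, the farthest from the median of the stromal level, r was 0.838, 0.825 and 0.811, over 4 samples. Relative to *Dcn*, the fibroblast proteoglycan decorin, *Ptger3* was nearly level, at 2.35, 2.32 and 1.96 CPM per 1000 CPM of *Dcn* in *fat-1* and 1.99, 2.17 and 2.16 in WT. Its highest sample was thereby 1.20 times the lowest, beside 2.14 times in CPM, and the same quotient for *Ptgir* was 1.40, beside 2.93. *Dcn* was only 1 of the 6 fibroblast markers, and ran over 898–2080 CPM. The others ran over 133–400 (*Lum*), 136–954 (*Col1a1*), 214–1277 (*Col1a2*), 86.8–1225 (*Col3a1*) and 82.6–246 CPM (*Pdgfra*). The level quotient of *Ptger3* thus holds for *Dcn* and not for fibroblast RNA as a whole.

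*Cysltr1* followed the immune markers, with r = 0.973 (exact permutation p = 0.00139, adjusted p = 0.0208) and rho 1.00 (exact permutation p = 0.00278, adjusted p = 0.0714). It ran against the epithelial markers, with r = −0.949 (exact permutation p = 0.00278, adjusted p = 0.0208) and rho −0.943. Without *fat-1* sample 2 and WT sample 3 these values of r were 0.874 and −0.704, over 4 samples.

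For *Gpr18* no coefficient is printed, because its samples form 2 separate sets of 3. The 3 samples with high *Gpr18* had immune marker levels of 4.29, 3.90 and 4.27 on the log2 scale, and the 3 with low *Gpr18* had 3.44, 3.51 and 3.74. Each set held samples of both genotypes. The highest sample was 3.95 times the lowest.

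*Ptger1*, *Ptger2*, *Ptger4*, *Ltb4r1* and *Fpr2* had no relation that passed for Pearson's r. The values of r farthest from 0 were −0.910 for *Ptger4* with the epithelial markers (adjusted p = 0.102, exact permutation), −0.835 for *Ptger2* with the stromal markers (adjusted p = 0.102, exact permutation) and 0.836 for *Fpr2* with the immune markers (adjusted p = 0.102, exact permutation). They were 0.660 for *Ltb4r1* with the immune markers (adjusted p = 0.281, exact permutation) and 0.161 for *Ptger1* with the immune markers (adjusted p = 0.787, exact permutation). For *Ptger4* with the immune markers rho was 0.943 (exact permutation, adjusted p = 0.0714), as for *Ptgir*, *Ptger3* and *Cmklr1* with the stromal markers. Without *fat-1* sample 2 and WT sample 3, r of *Ptger4* was 0.849 with the immune and −0.919 with the epithelial markers. By rank, *Ptger4* is thus not set apart from the receptors said to follow markers. Division of the CPM by *Dcn* narrowed the spread of *Ptger3*, *Ptgir* and *Cmklr1* and widened that of the other 7 receptors, and division by the luminal keratin gene *Krt8* widened the spread of all 10. These quotients were chosen after the values had been seen and carry no test. The part of cell makeup in the genotype comparison was not tested.

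**Figure D4:**
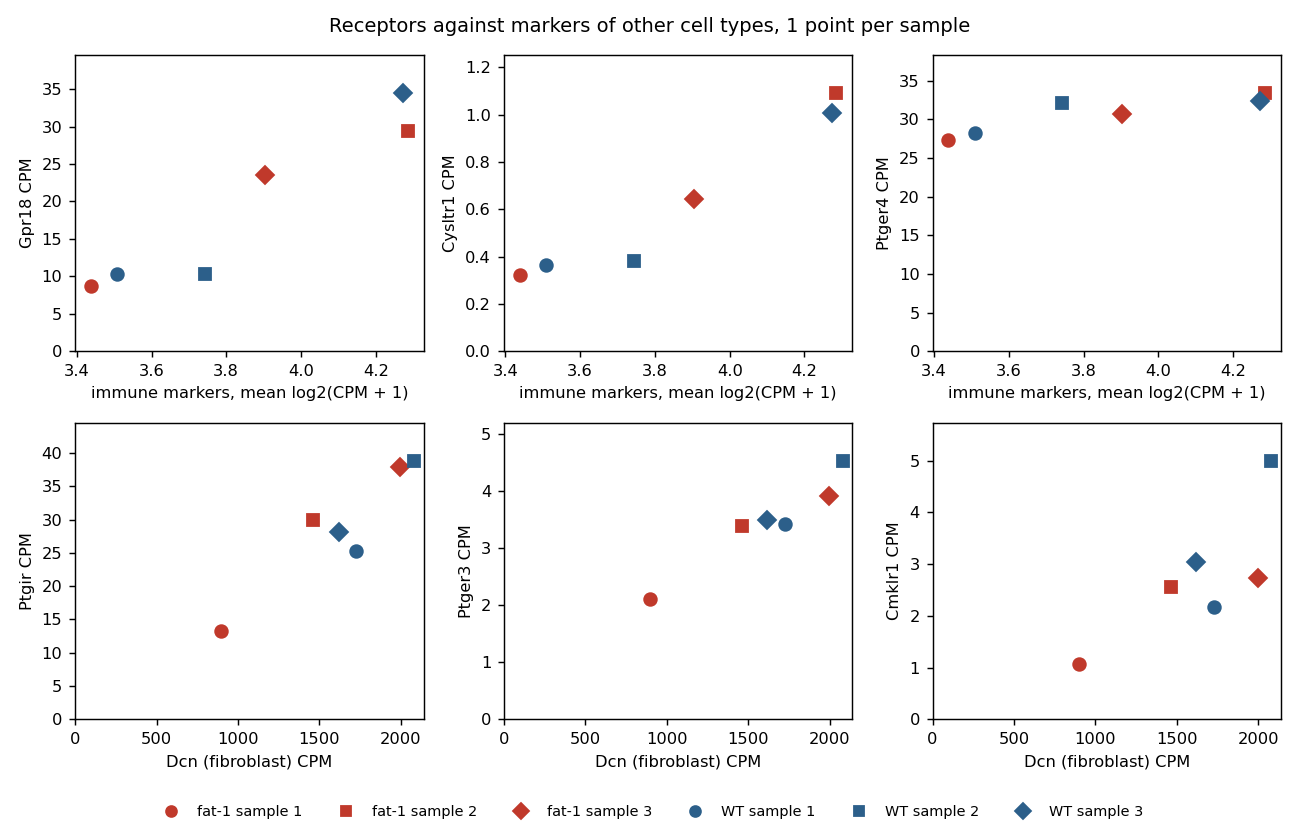
CPM of *Gpr18*, *Cysltr1* and *Ptger4* against the mean log2(CPM + 1) of 25 immune markers (upper panels) and of *Ptgir*, *Ptger3* and *Cmklr1* against the CPM of *Dcn* (lower panels), with 1 point per pooled sample and receptor axes from 0. Samples of both genotypes lie at the low and high ends of the upper panels, and *Ptger4* varies only from 27.3 to 33.4 CPM while the immune level runs from 3.44 to 4.29.

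The loci with profiles most like those of the 3 highest receptors were found by Pearson's r of log2(CPM + 1) over 6 samples, among 12305 loci. For *Gpr18* they were *Mrtfa*, *Gpr171* and *Acd*, in that order, with no coefficient printed for the reason above. For *Ptgir* they were *Fsd1l* (r = 1.00), *Igfbp7* (0.998) and *Npr1* (0.998), with 5.53% of loci at 0.9 or above. For *Ptger4* they were *Il5* (0.993), *Skp2* (0.991) and *Ptafr* (0.990), with 3.52% of loci at 0.9 or above. With so many loci that alike over 6 samples, these names are a description only.

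Of the 12 other receptors of these families, 10 could be tested, and 0 had an unadjusted p at or under 0.05, with 5 above 0, 5 below and a median log2 fold change of −0.01. The most abundant was *Ccrl2*, the chemerin-binding receptor that does not signal, at 17.8 ± 9.29 CPM in *fat-1* and 15.9 ± 4.87 CPM in WT (SD, n = 3 each). Per length, the signalling chemerin receptor *Cmklr1* was only 0.0779 to 0.251 times as high as *Ccrl2*. The thromboxane receptor *Tbxa2r* was at 3.21 ± 0.929 and 2.99 ± 1.47 CPM. The prostaglandin F receptor *Ptgfr* was at 1.22 ± 0.654 and 2.34 ± 0.853 CPM, a log2 difference of −0.95 (SE 0.47, unadjusted p = 0.0896). *Ptgdr2*, a prostaglandin D2 receptor, was at 0.215 ± 0.0298 and 0.132 ± 0.0486 CPM (unadjusted p = 0.0725, quasi-likelihood test). *Cmklr2*, listed as *Gpr1*, was at 0.0947 ± 0.0164 and 0.166 ± 0.0534 CPM (unadjusted p = 0.0542, quasi-likelihood test). The genotypes did not overlap for either receptor, where 4.15% of all loci did not overlap. Their counts were low, at 19 to 52 and 16 to 51 a sample. *Lgr6* was at 1.81 ± 0.939 and 2.71 ± 1.74 CPM, *Cysltr2* at 1.12 ± 0.484 and 1.11 ± 0.712 CPM, and *Fpr1* at 0.706 ± 0.121 and 0.672 ± 0.0133 CPM. *Ltb4r2* was at 0.426 ± 0.106 and 0.438 ± 0.228 CPM and *Gpr31b* at 0.162 ± 0.0598 and 0.184 ± 0.00755 CPM. *Ptgdr* had at most 20 counts in a sample and *Gpr37* at most 11, and neither was tested.

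The genes that make, carry and degrade the lipid ligands gave no call either. Of 20, 0 had an unadjusted p at or under 0.05, with 7 above 0, 13 below and a median log2 fold change of −0.04. Cyclooxygenase-2 (*Ptgs2*) was abundant, at 970 ± 41.5 CPM in *fat-1* and 1078 ± 266 CPM in WT, as was the prostaglandin transporter *Slco2a1*, at 157 ± 31.7 and 153 ± 31.7 CPM. 5-lipoxygenase (*Alox5*) was at 0.418 ± 0.165 and 0.407 ± 0.104 CPM. Both protein ligands failed the test. *Anxa1*, the annexin A1 ligand of *Fpr2*, was at 647 ± 412 and 548 ± 220 CPM, and *Rarres2*, which encodes chemerin, was at 52.5 ± 34.6 and 69.0 ± 15.7 CPM. Of 20 genes that act downstream of these receptors, such as the stimulatory G protein gene *Gnas* at 764 ± 65.2 and 786 ± 49.1 CPM, 0 had an unadjusted p at or under 0.05, with 9 above 0, 11 below and a median of −0.01. Among them, *Adcy6* and *Prkaca* share their loci with other genes, so that their fold changes are those of the summed locus.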

How the data were processed

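RNA was sequenced from 6 pooled samples of mammary cells, 3 *fat-1* and 3 WT, with genotype and number taken from the labels. Per the submitters' notes and the study's methods, the authors mapped reads to GRCm38 with HISAT2, assembled transcripts with StringTie, and deposited 1 matrix of counts, as whole numbers without normalization. The StringTie version, its annotation and use of strand are not given in the sources used here, so overlapping genes are uncertain. At this depth (above) the counting error is small beside the spread between samples for loci with many counts. It is not small for loci with few counts, such as *Gpr31b*, at 21 to 45 counts a sample. No value column lacked a sample (0).

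Rows sharing a locus identifier were summed. Genotype was the only term in edgeR 4.0.16 (R 4.3.3), with filterByExpr, TMM normalization, the newer quasi-likelihood fit and Benjamini–Hochberg adjustment at 0.05. Standard errors were computed as the fold change (log2) over the root of F. The test was first tried on simulated data with the spread fitted to these samples. At an adjusted p at or under 0.05 it found 0 of 200 true 2-fold changes and 179 of 200 true 4-fold changes. An absence of adjusted calls therefore does not by itself exclude 2-fold changes. The true changes were placed in loci with a mean above 1 CPM, and *Cysltr1* and *Fpr2* lay below that. With 2-fold changes the quasi-likelihood test called 0 unchanged loci. There edgeR's exact test called 45 unchanged loci beside 79 changed ones, and DESeq2 76 beside 96. Calls by these other tests can thus include many unchanged loci. Correlations used log2(CPM + 1). DESeq2 1.42.0, edgeR's exact test, other filters and scalings, a replicate block and samples left out were alternatives. The members and lists were chosen with earlier results of these data known. The text names all 10 members, all related receptors, the first marker of a list, the 3 loci most like each of the 3 highest members, list genes called and, chosen after their values were seen, a few enzymes, ligands and overlapping genes. Leaving out markers in shared loci was also added after seeing the data. Some items are not reported here.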

Additional observations from a re-analysis of the deposited data

How the results depend on the processing

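No alternative gave any of the 10 receptors an adjusted p at or under 0.05. Of all loci, 0 passed the adjusted threshold in the fit reported above, 6 by edgeR's exact test, 8 by DESeq2 and 0 to 1 with a sample left out; of all rows, 0, 32, 93 and 0 to 2. At the unadjusted threshold, 274 loci became 579 and 678 rows became 1136 without the filter on low counts, and with a sample left out 204 to 542 loci (482 without *fat-1* sample 1, 542 without WT sample 3) and 635 to 986 rows passed. The count of receptors there rose from 0 to 1 without *fat-1* sample 1 (*Ptger1*, locus and row), ranging from 0 to 1 over the samples left out. The 7 relations with markers became 0 on CPM without a logarithm and stayed at 7 with single rows or without markers in shared loci. The causes were not tested beyond what each alternative's construction shows.

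Same-numbered samples deviated together for number 1 (r = 0.80) but not clearly for numbers 2 and 3 (−0.16 and 0.13). *fat-1* sample 2 correlated best with WT sample 3 (0.79), and *fat-1* sample 3 with WT sample 2 (0.37). The numbers are thus not taken as pairs. With the replicate block, 0 loci passed the adjusted and 376 the unadjusted threshold (784 rows), 1 receptor locus (*Cmklr1*) but 0 receptor rows passed the latter, and the *Fpr2* row turned to −0.0081.

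*Ptger1*, *Ptger3*, *Ltb4r1* and *Cmklr1* kept their direction in all settings, but with a sample left out their locus values ranged, in that order, from 0.35 (without *fat-1* sample 2) to 0.70 (without *fat-1* sample 1), from −0.47 (without *fat-1* sample 3) to −0.055 (without *fat-1* sample 1), from 0.16 (without WT sample 2) to 0.69 (without WT sample 3) and from −0.92 (without WT sample 1) to −0.30 (without WT sample 2). With a sample left out the log2 fold change of the others ranged, for locus and row, from −0.10 to 0.19 and −0.10 to 0.19 (*Ptger2*), −0.092 to 0.064 and −0.089 to 0.062 (*Ptger4*), −0.51 to 0.15 and −0.51 to 0.15 (*Ptgir*), −0.27 to 0.90 and −0.27 to 0.88 (*Cysltr1*), −0.24 to 0.26 and −0.24 to 0.26 (*Fpr2*), and −0.19 to 1.01 and −0.19 to 0.99 (*Gpr18*). Even *Cysltr1* had at least 68 counts in each sample.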
